A study of Mus musculus with 10 samples.

Results

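The comparison set mouse embryonic stem cells with a deletion of the enhancer E1, labelled E1-KO, against unedited WT cells of the same line. It took every library with either label, which gave 2 E1-KO and 2 WT libraries, 4 of the 10 in the series. The other 6 carry deletions of E2, of E3 or of both E1 and E3, and they entered only where the spread between replicate libraries was estimated over all genotypes. All libraries came from ES-E14TG2a cells, a pluripotent male line, grown without feeder cells on gelatin in serum medium with LIF and inhibitors of GSK3 and MEK. The labels give neither the position of E1 nor its target, and they do not tell whether the libraries of a genotype are separate clones or cultures. All p-values therefore measure the spread between these libraries, which may be technical. Published work uses these names for enhancers near the HoxA gene cluster on chromosome 6, so that stretch is described separately.

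Contacts were measured by exo-Hi-C. Hi-C ligates pieces of DNA that lie close together in the nucleus and reads both partners, and the exonuclease step removes DNA that was not ligated into such junctions. Contact frequency falls with the distance along the chromosome, since neighbouring segments meet more often than distant ones. Above this decay, stretches whose segments contact each other more than they contact their flanks are called topologically associating domains (TADs), and their edges are called boundaries. Boundaries in mammals are often held by the insulator protein CTCF and by cohesin, and enhancers mostly act on promoters within their own TAD. In this type of data a deleted enhancer could be looked for as an altered contact or TAD near it, or as differences spread over the genome.

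Each library has a list of interactions, which are pairs of 10 kb bins on 1 chromosome with more reads than its distance predicts (adjusted p-value of at most 0.01 in the deposited list), and a list of TADs with a score that is never under 1.5. The total number of reads per library is unknown. Expected contacts for an average pair of bins at a distance of 1 Mb, recovered from the deposited counts, p-values and bias factors, served as a relative depth. They were 0.246 and 0.114 in the E1-KO libraries, against 0.191 and 0.207 in the WT libraries, so the deepest and the shallowest of the 4 were both E1-KO. WT replicate 2 writes each interaction forwards and backwards, so its 932 lines were reduced to 466 interactions. Whether its contacts were also counted doubly, which would overstate its depth, was not tested. That library lists no interaction under 90 kb, while the other 3 begin at 20 kb. Its title also differs in form from that of WT replicate 1, whose prefix neither E1-KO library carries. Expression of stem cell markers cannot be checked in these files.

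The E1-KO libraries differed from WT in how contacts fell off with distance. Expected contacts, relative to those at 1 Mb, were lower in E1-KO at short distances and higher at long ones, and both E1-KO libraries followed almost the same curve. At 0.1 Mb they stood at 8.12 and 8.10 times the 1 Mb level in E1-KO, against 9.44 and 9.99 times in WT. The E1-KO mean was 8.11 ± 0.0123, against 9.72 ± 0.384 in WT (SD, n = 2 each). The gap between genotypes was wider than the gap between libraries of either genotype.

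**Figure D1:**
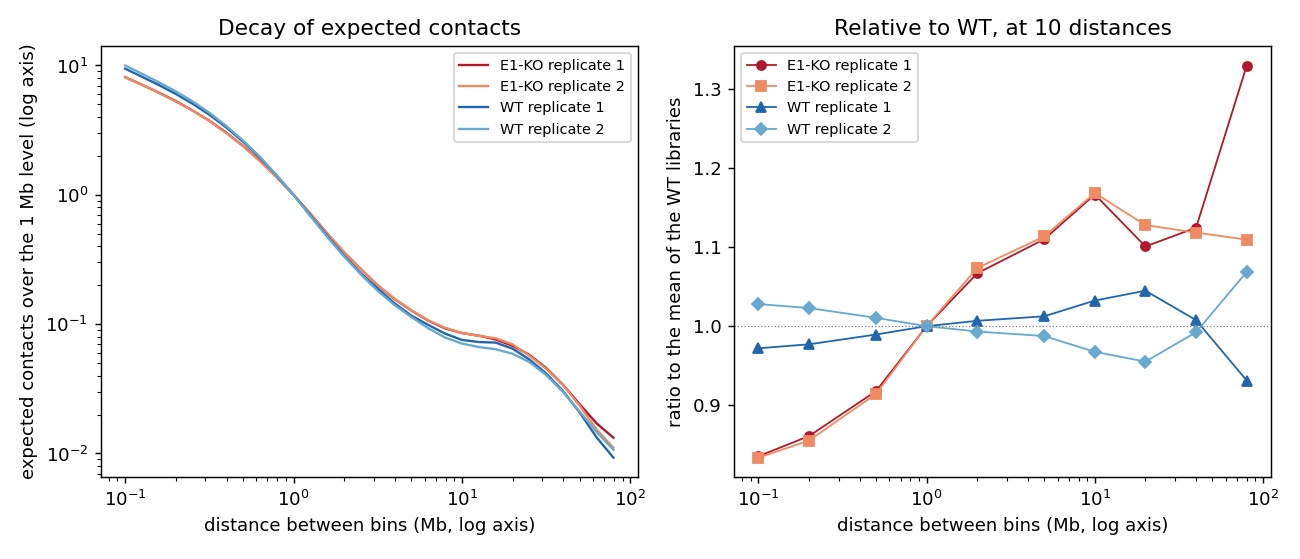
Expected contacts relative to the level at 1 Mb against distance between bins, both on log axes (left), and the same values divided by the mean of the WT libraries at 10 distances (right), with 1 line per library. Both E1-KO lines lie below the WT lines under 1 Mb and above them from 2 to 80 Mb.

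The plot of the decay shows that the lines cross at 1 Mb, where every library is set to 1. The log2 difference at 0.1 Mb was -0.26 (SE 0.0688) in a limma fit over all 10 libraries, with an adjusted p of 0.0259. At 0.2 Mb the ratios were 5.31 and 5.27 in E1-KO, against 6.02 and 6.31 in WT (log2 difference -0.22, limma adjusted p = 0.0259). At 0.5 Mb they were 2.40 and 2.39 in E1-KO, against 2.58 and 2.64 in WT (-0.13, limma adjusted p = 0.0391). Contacts at all 3 short distances were therefore lower in E1-KO relative to those at 1 Mb. The value of WT replicate 2 at 0.1 Mb was interpolated between listed pairs at 90 and 140 kb.

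At 10 Mb, well beyond the length of a TAD, the ratios were 0.0854 and 0.0855 in E1-KO, against 0.0756 and 0.0708 in WT. The log2 difference was 0.22 (SE 0.0697, limma adjusted p = 0.0327), and the other 6 libraries ranged from 0.0658 to 0.0761, below both E1-KO libraries. At 0.1 Mb the other 6 libraries ranged from 8.02 to 9.98, on both sides of E1-KO. At 40 Mb the ratios were 0.0338 and 0.0336 in E1-KO, against 0.0303 and 0.0298 in WT (log2 difference 0.17, limma adjusted p = 0.0484). There the other 6 libraries ranged from 0.0265 to 0.0411, on both sides of E1-KO. Both libraries with E1 and E3 deleted lay above E1-KO, at 0.0365 and 0.0411. In all, 5 of 9 distances (55.6%) passed the threshold of 0.05, 2 of them higher in E1-KO (22.2%) and 3 lower (33.3%). The distances share 1 curve per library and are not independent.

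At 2, 5, 20 and 80 Mb the E1-KO values also lay above both WT values, with log2 differences from 0.10 to 0.28, and did not pass (limma adjusted p from 0.0538 to 0.0715). The values at 80 Mb were 0.0132 and 0.0110 in E1-KO, against 0.0092 and 0.0106 in WT, where the E1-KO libraries no longer follow each other closely. At that distance the other 6 libraries ranged from 0.0083 to 0.0213, on both sides of E1-KO. The number of distances called depends on which libraries are in the fit. None passed without E1-KO replicate 1, without E1-KO replicate 2 or without WT replicate 2 (smallest adjusted p from 0.0926 to 0.138), 3 passed without WT replicate 1, and 8 passed with the 4 libraries alone. With the replicate number as a block, 2 passed, at 0.1 and 0.2 Mb, both lower in E1-KO, and no distance was called higher (limma adjusted p = 0.0544 at 10 Mb and 0.0597 at 40 Mb). The log2 difference at 0.1 Mb stayed between -0.30 and -0.22 when a library was left out. With the curves scaled to 5 Mb in place of 1 Mb, 3 distances passed.

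The listed interactions were shorter in E1-KO. Their median distance was 0.21 and 3.91 Mb in the E1-KO libraries, against 18.22 and 41.32 Mb in the WT libraries, and the groups did not overlap. The difference was -1.48 on the log10 scale (exact permutation p = 0.333, two-sided, the smallest p that 2 libraries against 2 can give). Among the other 6 libraries, E2-KO replicate 2 had a median of 1.99 Mb, shorter than that of E1-KO replicate 2. The rest lay from 20.99 to 48.05 Mb. The number of interactions was 1066 and 518 in E1-KO, against 1273 and 466 in WT, so the libraries of a genotype differed more than the genotypes (log2 difference -0.05, exact permutation p = 1). A listed pair rested on a median of 15 and 6 reads in E1-KO and of 4 reads in each WT library.

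**Figure D2:**
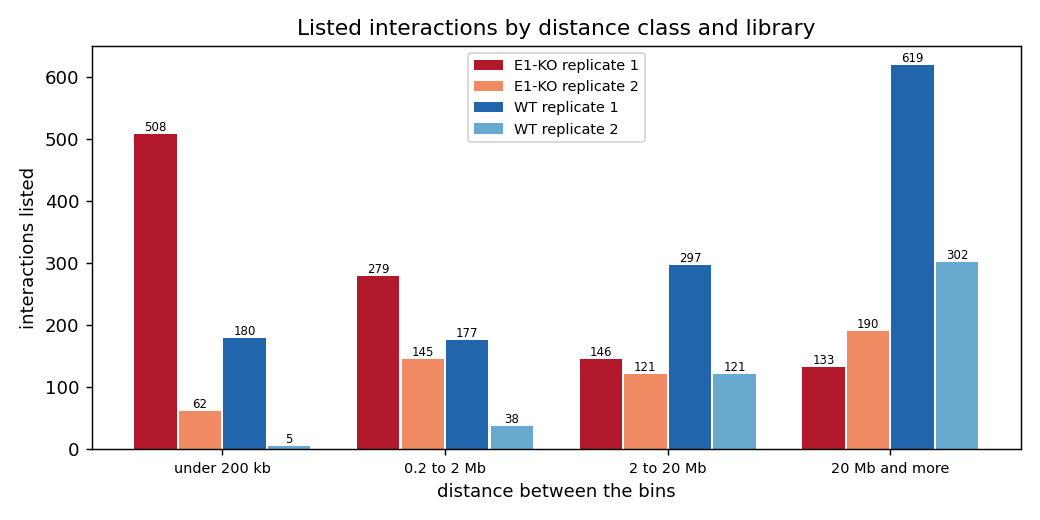
Number of listed interactions in each of 4 distance classes, with 1 bar per library. E1-KO replicate 1 holds the most interactions under 200 kb (508), and WT replicate 1 the most of 20 Mb and more (619).

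By distance class, the bars of the listed interactions show opposite ends of the scale filled in the genotypes. Under 200 kb there were 508 and 62 interactions in E1-KO, against 180 and 5 in WT. These made up 47.7% and 11.97% of the lists of E1-KO, against 14.1% and 1.07% in WT. E1-KO replicate 2 and WT replicate 1 had nearly the same share, so the groups overlapped, and their means were 29.8% ± 25.2 in E1-KO and 7.61% ± 9.24 in WT (SD, n = 2 each). The log2 difference of the share was 2.55 (SE 1.14, limma adjusted p = 0.0710).

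From 0.2 to 2 Mb, the range within and between neighbouring TADs, the lists held 279 and 145 interactions in E1-KO, against 177 and 38 in WT. As shares these were 26.2% and 28.0% in E1-KO, against 13.9% and 8.15% in WT. Both E1-KO shares lay above both WT shares, and this class had the smallest spread within E1-KO. The log2 difference was 1.34 (SE 0.576, limma adjusted p = 0.0710).

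From 2 to 20 Mb the shares were 13.7% and 23.4% in E1-KO, against 23.3% and 26.0% in WT (log2 difference -0.46, limma adjusted p = 0.399), and the ranges overlapped. At 20 Mb and more there were 133 and 190 interactions in E1-KO, against 619 and 302 in WT. The shares were 12.5% and 36.7% in E1-KO, against 48.6% and 64.8% in WT, without overlap (log2 difference -1.39, SE 0.618, limma adjusted p = 0.0710). In limma 0 of the 4 classes (0%) passed at an adjusted p of 0.05, and 1, from 0.2 to 2 Mb, had an unadjusted p under 0.05. The class under 200 kb passed without WT replicate 1 (log2 difference 4.35, limma adjusted p = 0.00031), and the class of 20 Mb and more passed without E1-KO replicate 2 (-2.16, limma adjusted p = 0.0298).

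The reads behind a pair differed by distance and not only by library. In E1-KO replicate 1 the median pair had 20 reads under 200 kb, 13 from 0.2 to 2 Mb, 6 from 2 to 20 Mb and 3 at 20 Mb and more. In WT replicate 1 the same medians were 17, 12, 4 and 3 reads. Pairs of 20 Mb and more with 3 reads sit at the lowest count that any of these lists holds. Few were found again in another library. Of those in E1-KO replicate 1, 14.3% were in E1-KO replicate 2, 15.8% in WT replicate 1 and 12.03% in WT replicate 2, allowing 1 bin at each end. Of those in WT replicate 1, 2.75% were in E1-KO replicate 1, 2.26% in E1-KO replicate 2 and 1.94% in WT replicate 2.

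Few pairs under 200 kb of E1-KO replicate 1, the class with the most reads, were found again either, with 7.28% in E1-KO replicate 2, 18.5% in WT replicate 1 and 1.18% in WT replicate 2, which lists nothing under 90 kb. Pairs from 2 to 20 Mb of E1-KO replicate 1 recurred more often, with 43.2% in E1-KO replicate 2, 52.7% in WT replicate 1 and 36.3% in WT replicate 2. This library lists 508 pairs under 200 kb and E1-KO replicate 2 only 62, which limits the matches there. The other libraries did not all show this order. In E1-KO replicate 1, 50% of the pairs under 200 kb of E1-KO replicate 2 were found, and 50.4% of those from 2 to 20 Mb. For WT replicate 1 the same shares were 43.3% and 24.2%. Over all distances, 18.6% of the interactions of E1-KO replicate 1 were in E1-KO replicate 2, against 26.8% in WT replicate 1 and 10.6% in WT replicate 2. A longer list offers more matches, and WT replicate 1 lists 1273 interactions, against 518 in E1-KO replicate 2. Of the interactions of E1-KO replicate 2, 36.7% were in E1-KO replicate 1 and 36.9% in WT replicate 1. The E1-KO libraries thus did not share more of their lists with each other than with WT replicate 1.

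Chromosome by chromosome, the median distance of interactions was shorter in both E1-KO libraries than in both WT libraries on 12 of 20 chromosomes and longer on none. On chromosome 4 the medians were 0.24 and 1.42 Mb in E1-KO, against 22.22 and 59.32 Mb in WT. On chromosome 17 they were 0.10 and 0.22 Mb in E1-KO, against 18.60 and 34.53 Mb in WT. On the X chromosome they were 28.88 and 27.85 Mb in E1-KO, against 28.88 and 43.23 Mb in WT, and the X chromosome had no interaction under 200 kb in either E1-KO library, with 1 and 0 in WT. Median bias factors of the listed bins, by which the expected contacts of a bin are multiplied, were 0.65 and 0.70 on the X chromosome in E1-KO, against 0.67 and 0.66 in WT.

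Chromosomes 15 and 18 held fewer of the E1-KO interactions. Chromosome 15 had 19 and 4 interactions in E1-KO, against 50 and 16 in WT, or 1.78% and 0.77% of the lists in E1-KO and 3.93% and 3.43% in WT. Its log2 difference was -1.57 (SE 0.446, limma unadjusted p = 0.00506, adjusted p = 0.101). Chromosome 18 had 9 and 4 interactions in E1-KO, against 27 and 7 in WT (log2 difference -1.08, limma unadjusted p = 0.0231, adjusted p = 0.231). In limma, 0 of 20 chromosomes (0%) passed after adjustment, and only these 2 had an unadjusted p under 0.05. Both chromosomes passed with the 4 libraries alone, and chromosome 15 passed without E1-KO replicate 1 (limma adjusted p = 0.0178).

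Upward, the largest difference was on chromosome 17, which held 4.22% and 1.74% of the interactions in E1-KO, against 2.12% and 0.86% in WT, with overlap (log2 difference 0.95, limma adjusted p = 0.280). Chromosome 6 held 8.91% and 8.88% of the interactions in E1-KO, against 6.99% and 5.79% in WT (log2 difference 0.48, limma adjusted p = 0.303). Chromosome 12 held 7.69% and 11.8% in E1-KO, against 6.05% and 6.65% in WT (0.58, limma adjusted p = 0.280). Chromosome 13 held 5.82% and 7.53% in E1-KO, against 4.32% and 4.72% in WT (0.54, limma adjusted p = 0.301). On chromosomes 6, 12 and 13 both E1-KO values lay above both WT values. Both lay below on 6 chromosomes. Median bias factors of the listed bins on chromosome 6 were 1.43 and 1.24 in E1-KO, against 1.27 and 1.13 in WT, and those on chromosome 8 were 1.42 and 1.13 in E1-KO, against 1.31 and 1.21 in WT. On the remaining 17 autosomes they lay between 0.833 and 1.16.

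**Figure D3:**
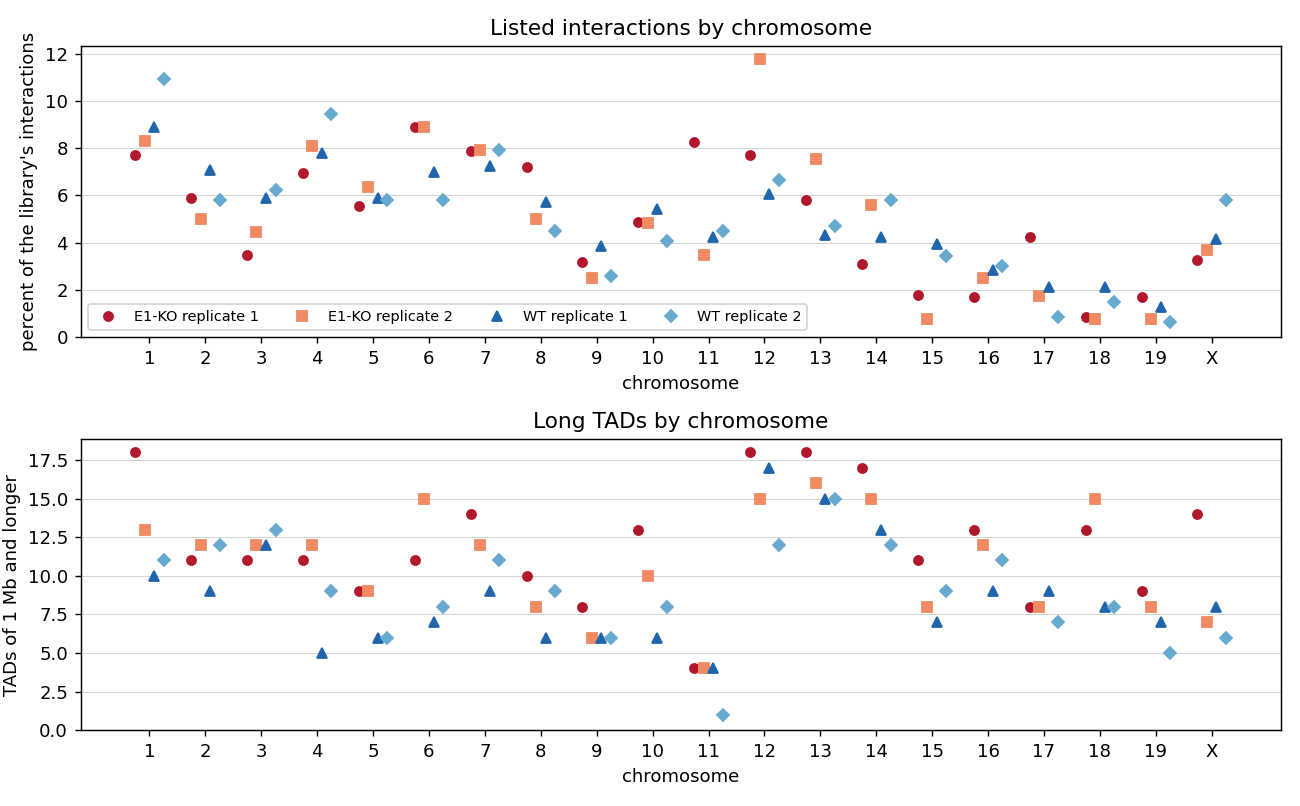
Percent of each library's listed interactions on each chromosome (top) and number of TADs of 1 Mb and longer on each chromosome (bottom), with 1 point per library. Both E1-KO points lie below both WT points on chromosomes 15 and 18 (top), and chromosomes 1, 4, 5, 6, 10 and 18 are among those where both E1-KO points lie above both WT points (bottom).

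Only 58 interactions were listed in all 4 libraries, and these allowed reads to be compared at the same place. Their enrichment is the count of reads over the expected reads at that distance and bias, on the log2 scale after the median of each library over these pairs was subtracted. In limma 0 of 58 passed (0%, smallest adjusted p 0.527), and 4 had an unadjusted p under 0.05, all higher in E1-KO. The E1-KO and WT values did not overlap for 17 pairs that were higher in E1-KO (29.3%) and 5 that were lower (8.62%). Without the centring these counts were 8 and 3. The median difference was 0.32, and by distance it was 0.77 over the 3 pairs under 200 kb, 0.47 over the 21 from 0.2 to 2 Mb, 0.02 over the 25 from 2 to 20 Mb and 0.22 over the 9 of 20 Mb and more. These medians are of centred values, and no test compared the distance classes. The standard error was 0.45 for every pair, as large as the SD of the differences, 0.43. In this fit limma used 1 spread pooled over all 58 pairs. The p-value of a single pair thus does not measure the spread between libraries at that pair alone.

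The widest of these gaps was at 21.905 and 22.095 Mb of chromosome 10. That pair had 50 and 49 reads in E1-KO, against 36 and 16 in WT, and a log2 difference in enrichment of 1.11 (SE 0.451, limma adjusted p = 0.527). The pair at 130.685 and 130.945 Mb of chromosome 6 had 25 and 27 reads in E1-KO, against 18 and 16 in WT (log2 difference 0.92, limma adjusted p = 0.527). The pair at 18.325 and 25.095 Mb of chromosome 12, 6.77 Mb apart, had 20 and 20 reads in E1-KO, against 12 and 9 in WT (0.89). The pair at 145.045 and 146.015 Mb of chromosome 4 had 22 and 18 reads in E1-KO, against 12 and 10 in WT (0.81), and the pair at 84.965 and 87.445 Mb of chromosome 1 had 15 and 17 reads in E1-KO, against 9 and 5 in WT (0.92). In each of these 5 pairs both E1-KO libraries had more reads than either WT library, including the shallower E1-KO replicate 2. The 5 were picked because their enrichment was higher in both E1-KO libraries, so higher reads there are partly built into the choice.

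On the lower side, the pair at 116.495 and 136.275 Mb of chromosome 6 had 22 and 18 reads in E1-KO, against 27 and 26 in WT (log2 difference in enrichment -0.70, limma adjusted p = 0.527). The pair at 4.255 and 7.825 Mb of chromosome 14 had 7 and 9 reads in E1-KO, against 18 and 5 in WT (-0.67). On the X chromosome, the pair at 4.245 and 32.095 Mb had 8 and 14 reads in E1-KO, against 19 and 15 in WT (-0.23), and without WT replicate 1 its difference was 0.02. The pair at 3.075 and 30.485 Mb of the same chromosome rested on 4 and 4 reads in E1-KO, against 5 and 4 in WT (-0.45), and that at 20.255 and 24.465 Mb of chromosome 12 on 5 and 5 reads in E1-KO, against 7 and 5 in WT (-0.24). With 4 to 7 reads per library, the last pairs cannot show a difference at this depth.

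An interaction was counted as gained when both E1-KO libraries and neither WT library listed it within 1 bin, and as lost in the reverse case. There were 32 gained (1.16%) and 7 lost (0.255%) among 2749 distinct interactions of the 4 libraries. The gained ones were short, with 10 under 200 kb, 15 from 0.2 to 2 Mb, 6 from 2 to 20 Mb and 1 beyond, and a median of 315 kb. The lost ones had 1, 0, 4 and 2 in the same classes and a median of 7180 kb. Chromosome 8 held 5 gained interactions, chromosomes 7 and 13 held 4 each, and chromosomes 5, 6, 12 and 17 held 3 each, while chromosomes 2, 9, 10, 15, 16, 18, 19 and X held none. These counts were not scaled to the number of interactions on each chromosome.

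WT replicate 2 lists nothing under 90 kb, so a short interaction of E1-KO could not be found there. For each gained pair, the fewest reads that would have entered the WT lists were computed from the bias factors of its bins in E1-KO. They are known in both WT libraries for 25 of the 32, and in 19 of these both E1-KO counts reached them. For 11 of the 32, a WT library lists an interaction within 100 kb at both ends. In 21 of the 32 at least 3 of the other 6 libraries list the pair, and 2 of the 32 are in none.

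The gained interaction with the smallest mean p in the lists joins 130.715 and 130.965 Mb of chromosome 6. It had 21 and 26 reads in E1-KO, and 11 and 12 reads would have been enough in WT. Both WT libraries list an interaction within 100 kb, among them the shared pair at 130.685 and 130.945 Mb described above. On chromosome 12, the gained pair at 18.335 and 25.075 Mb had 5 and 14 reads in E1-KO, with 4 needed in each WT library, and it also lies beside a pair that all 4 libraries list. On chromosome 1, 175.205 and 176.265 Mb had 8 and 11 reads in E1-KO, with 6 needed in each WT library, and both WT libraries list a pair within 100 kb. These 3 places thus hold contacts in both genotypes and differ in the exact bins.

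Other gained pairs had no WT interaction close by. On chromosome 3, 96.145 and 96.195 Mb were joined by 30 and 33 reads in E1-KO, with 20 needed in WT replicate 1, and 5 of the other 6 libraries list the pair. On chromosome 14, 3.135 and 4.185 Mb had 8 and 16 reads in E1-KO, with 7 needed in each WT library. On chromosome 17, 66.585 and 66.835 Mb had 21 and 15 reads in E1-KO, with 13 and 14 needed in WT.

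Of the 4 pairs gained on chromosome 13, 2 lie within 0.5 Mb of each other. The pair at 68.125 and 68.415 Mb had 14 and 16 reads in E1-KO, with 10 needed in each WT library, and the pair at 68.445 and 68.525 Mb had 20 and 16 reads in E1-KO, with 13 needed in WT replicate 1. Of the other 6 libraries, 5 list the first pair and 6 list the second. Both pairs lie inside the TAD from 68.09 to 68.61 Mb that only the WT libraries of the 4 list, described with the lost TADs.

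The 7 lost interactions lie in 6 places. On chromosome 14, 4.865 and 8.115 Mb were joined by 8 and 8 reads in WT, with 4 needed in each E1-KO library, and 4.395 and 7.765 Mb by 10 and 7 reads in WT, with 5 needed in each E1-KO library. No E1-KO interaction lay within 100 kb of either. On chromosome 8, the bin at 19.855 Mb was joined to neighbouring bins at 72.065 and 72.075 Mb, with 6 and 7 reads in WT for each, and on chromosome 7 the bins at 39.215 and 39.325 Mb were each joined to 46.505 Mb with 5 or 6 reads in WT. Both E1-KO libraries list interactions within 100 kb of these 4 pairs. One of the gained interactions, at 19.795 and 72.105 Mb of chromosome 8 with 5 and 4 reads in E1-KO, lies beside the lost ones. The remaining lost pair, at 117.645 and 117.725 Mb of chromosome 10, had 17 and 16 reads in WT, with 17 and 13 needed in E1-KO. E1-KO replicate 2 lists an interaction within 100 kb of this pair.

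The TAD lists differed in the longest TADs. The class of 1 Mb and longer was singled out after its values were seen. The libraries held 241 and 217 such TADs in E1-KO, against 173 and 179 in WT. The means were 229 ± 16.97 in E1-KO and 176 ± 4.24 in WT (SD, n = 2 each), and the log2 difference was 0.38 (exact permutation p = 0.333, the smallest possible). They covered 340.7 and 302.2 Mb in E1-KO, against 236.8 and 244.7 Mb in WT. Their median score was 1.730 and 1.754 in E1-KO, against 1.664 and 1.709 in WT. In number, cover and score, both E1-KO libraries lay above both WT libraries.

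**Figure D4:**
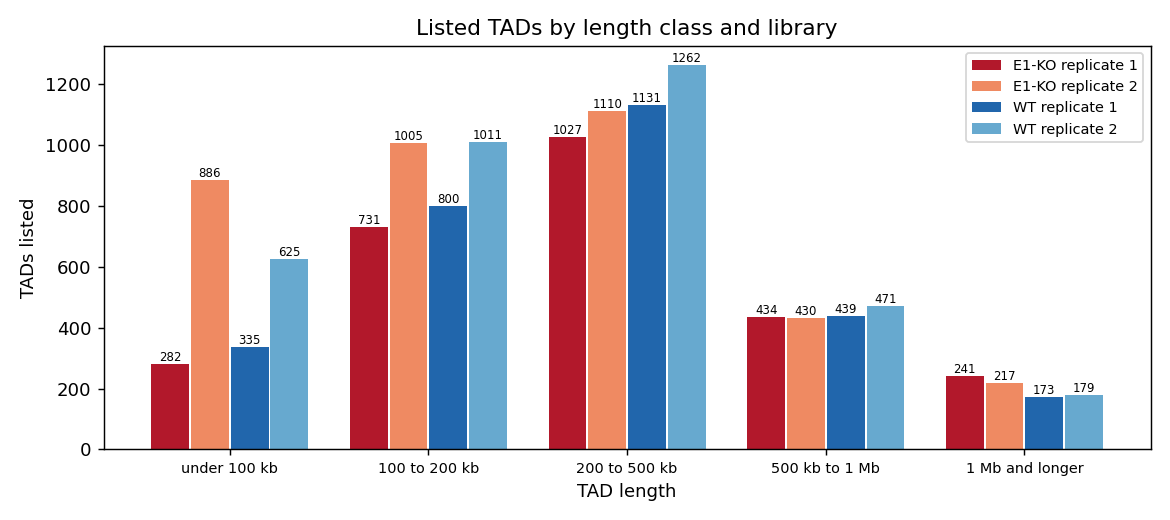
Number of listed TADs in each of 5 length classes, with 1 bar per library. Both E1-KO bars exceed both WT bars in the class of 1 Mb and longer, and both lie below them from 200 to 500 kb.

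The total number of TADs was 2715 and 3648 in E1-KO, against 2878 and 3548 in WT, and the median length was 260 and 190 kb in E1-KO, against 250 and 210 kb in WT. In both measures the first replicates resembled each other, as did the second ones, and the genotypes overlapped. The bars by length class show most of the spread under 100 kb, with 282 and 886 TADs in E1-KO, against 335 and 625 in WT. From 200 to 500 kb there were 1027 and 1110 in E1-KO, against 1131 and 1262 in WT, and from 500 kb to 1 Mb there were 434 and 430 in E1-KO, against 439 and 471 in WT. The share of the longest class was 8.88% and 5.95% in E1-KO, against 6.01% and 5.05% in WT, so as shares the groups overlapped.

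Tested as shares of each library's list, 0 of the 5 length classes (0%) passed in limma, and 0 had an unadjusted p under 0.05. The class of 1 Mb and longer had a log2 difference of 0.40 (SE 1.33, limma adjusted p = 0.954). That SE includes the spread within the other genotypes, whose 6 libraries held from 19 to 205 such TADs at relative depths from 0.0147 to 0.171. None of them reached the E1-KO counts. With the 4 libraries alone the log2 difference of the share was also 0.40, and the class did not pass either (limma adjusted p = 0.821). E1-KO replicate 2 held more long TADs than either WT library at a relative depth of 0.114, against 0.191 and 0.207 in WT, and the part of depth in these counts was not tested. The higher number in E1-KO held without each of the 4 libraries (log2 difference from 0.30 to 0.45).

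Of the TADs of 1 Mb and longer in E1-KO replicate 1, 73.4% were found in E1-KO replicate 2, against 57.7% in WT replicate 1 and 58.1% in WT replicate 2, at a reciprocal overlap of 80%. Of those in E1-KO replicate 2, 82.5% were found in E1-KO replicate 1, against 62.7% and 63.1% in the WT libraries. The WT libraries list fewer TADs of this length, 173 and 179, against 241 and 217 in E1-KO, which limits the matches there. In reverse, those of WT replicate 1 were found in 80.3% and 76.9% of cases in the E1-KO libraries and in 72.8% in WT replicate 2. Over all lengths the shares were alike, and 61.7% of the TADs of E1-KO replicate 1 were in E1-KO replicate 2, 62.4% in WT replicate 1 and 60.2% in WT replicate 2. Boundaries within 20 kb of those of E1-KO replicate 1 were found in 69.3% of cases in E1-KO replicate 2, in 69.0% in WT replicate 1 and in 69.9% in WT replicate 2.

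By chromosome, both E1-KO libraries held more TADs of 1 Mb and longer than both WT libraries on 11 of 20 chromosomes, and fewer on none. Chromosome 6 had 11 and 15 in E1-KO, against 7 and 8 in WT. Chromosome 18 had 13 and 15 in E1-KO, against 8 and 8 in WT. Chromosome 4 had 11 and 12 in E1-KO, against 5 and 9 in WT, and chromosome 10 had 13 and 10 in E1-KO, against 6 and 8 in WT. The longer TADs were thus spread over the genome, as the points by chromosome show.

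The shares of all TADs by chromosome differed little. In limma 0 of 20 chromosomes (0%) passed and 0 had an unadjusted p under 0.05, and the log2 differences reached 0.13 at most in either direction. Chromosome 12 was at that end, with 4.09% and 3.81% of the TADs in E1-KO, against 3.75% and 3.47% in WT. The median TAD length by chromosome, relative to that of the library, also gave 0 of 20 calls (0%) in limma, and 0 had an unadjusted p under 0.05. Chromosome 6 had medians of 270 and 270 kb in E1-KO, against 260 and 220 kb in WT.

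The score could be compared in 1085 TADs that all 4 libraries list. On the log2 scale, after each library's median over these TADs was subtracted, 0 passed in limma (0%, smallest adjusted p 0.370), and 101 had an unadjusted p under 0.05, 47 higher and 54 lower in E1-KO. The differences had an SD of 0.0881, and scores of 2 libraries correlated across these TADs with r from 0.767 to 0.830, which describes TADs and not replicates. E1-KO and WT values did not overlap for 228 TADs that were higher in E1-KO (21%) and 211 that were lower (19.4%).

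**Figure D5:**
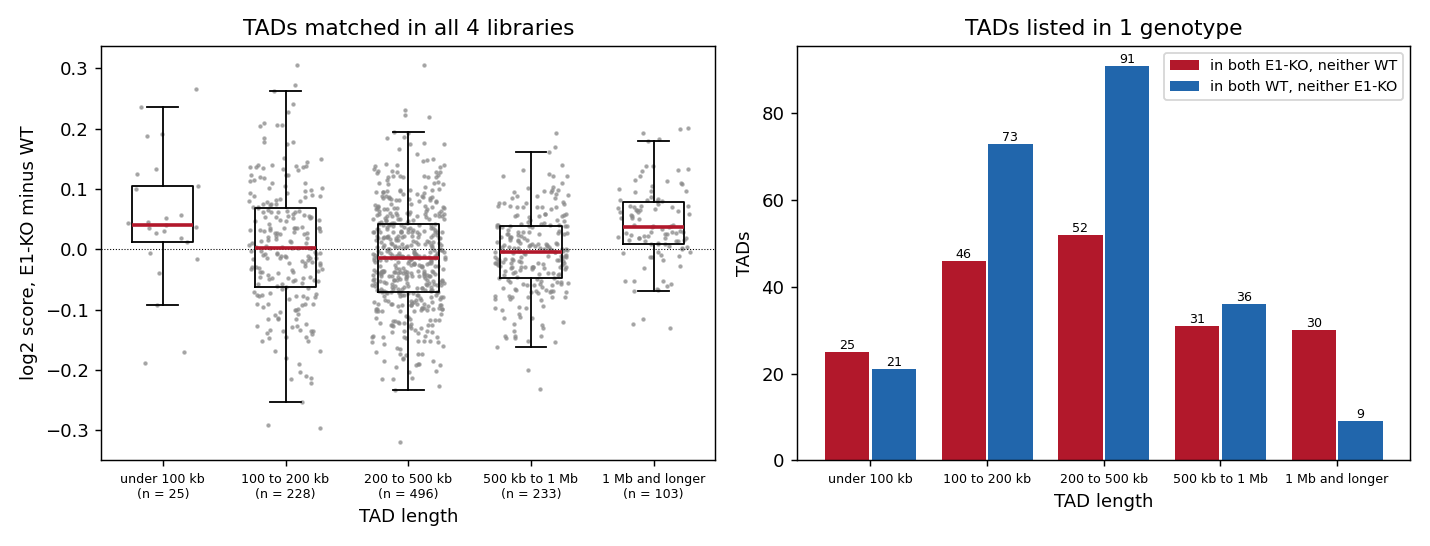
Left, difference in log2 TAD score, E1-KO minus WT, of the TADs matched in all 4 libraries, by length class, with a grey point per TAD, boxes from the lower to the upper quartile, a red median line and whiskers to the last point within 1.5 box lengths. Right, number of TADs listed in both libraries of 1 genotype and neither of the other. In the class of 1 Mb and longer the median lies above 0 and the counts are 30 in E1-KO and 9 in WT.

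By length, the boxes of score differences show a higher score in E1-KO among long TADs. Of the 103 matched TADs of 1 Mb and longer, 42 lay higher in E1-KO without overlap (40.8%) and 9 lower (8.74%), against the 21% and 19.4% over all matched TADs. Their median difference was 0.04 (SD 0.0651 over TADs), against -0.0012 over all, and 81 of the 103 were above 0. Of the 982 shorter TADs, 186 lay higher and 202 lower, and the class from 200 to 500 kb had 83 higher and 113 lower. The class under 100 kb also had a median of 0.04, from 25 matched TADs. The median of the longest class was between 0.03 and 0.05 without each library, without centring and at reciprocal overlaps of 50% and 90%. No long TAD passed on its own.

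Among long TADs, that from 6.77 to 8.77 Mb of chromosome 13 had the largest difference, with scores of 1.846 and 1.814 in E1-KO, against 1.552 and 1.618 in WT (log2 difference 0.20, limma adjusted p = 0.389). The TAD from 75.4 to 76.5 Mb of chromosome 12 had 2.038 and 2.162 in E1-KO, against 1.826 and 1.857 in WT (0.18). The TAD from 130.64 to 132.56 Mb of chromosome 7 had 1.859 and 1.947 in E1-KO, against 1.622 and 1.726 in WT (0.18). These were named after their values were seen. The largest drop among long TADs was from 25.31 to 26.71 Mb of chromosome 14, with 2.311 and 2.390 in E1-KO, against 2.450 and 2.676 in WT (-0.13).

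Over TADs of every length, the widest gap upward was from 18.59 to 18.95 Mb of chromosome 8, with scores of 2.199 and 2.337 in E1-KO, against 1.863 and 1.789 in WT (log2 difference 0.31, SE 0.0611, limma adjusted p = 0.370). The TAD from 65.61 to 65.78 Mb of chromosome 13 had 3.113 and 4.005 in E1-KO, against 2.724 and 2.972 in WT (0.30), where E1-KO replicate 2 stands apart. The TAD from 29.52 to 29.66 Mb of chromosome 17 had 2.652 and 2.646 in E1-KO, against 2.236 and 2.162 in WT (0.26). The TAD from 48.59 to 48.68 Mb of chromosome 11 had 2.593 and 2.816 in E1-KO, against 2.098 and 2.388 in WT (0.27). A gained interaction lies inside it, between 48.605 and 48.665 Mb, with 26 and 17 reads in E1-KO and 19 needed in WT replicate 1. It spans 60 kb, and WT replicate 2 lists nothing under 90 kb. In all, 7 gained interactions lie inside a matched TAD. The others lie in TADs whose log2 score differences were from -0.05 to 0.07.

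The other 4 named TADs with a higher score lie on chromosome 10 from 82.83 to 82.96 Mb, on chromosome 8 from 67.54 to 67.63 Mb, on chromosome 11 from 74.18 to 74.38 Mb and on the X chromosome from 74.07 to 74.20 Mb. Their log2 differences were from 0.23 to 0.27. Adjusted p in limma was from 0.370 to 0.427 for all 8. The 8 named by this rule were 360 kb long at most, so none was among the longest class.

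Downward, the widest gap was from 35.13 to 35.36 Mb of chromosome 9, with scores of 1.954 and 2.030 in E1-KO, against 2.486 and 2.459 in WT (log2 difference -0.32, SE 0.0551, limma unadjusted p = 0.00058, adjusted p = 0.370). The next TAD on that chromosome, from 35.38 to 36.51 Mb, went the other way, with 2.038 and 1.849 in E1-KO, against 1.651 and 1.714 in WT (0.20). The TAD from 90.18 to 90.29 Mb of chromosome 3 had 1.532 and 1.614 in E1-KO, against 1.840 and 2.006 in WT (-0.30). The TAD from 115.48 to 115.58 Mb of chromosome 11 had 1.549 and 1.570 in E1-KO, against 1.924 and 1.876 in WT (-0.29). Both lie close to the lowest score listed in E1-KO.

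On chromosome 17, the strongly scored TAD from 15.18 to 15.62 Mb had 2.872 and 3.062 in E1-KO, against 3.313 and 3.637 in WT (-0.23). On the X chromosome, the TAD from 73 to 73.55 Mb had 1.736 and 1.832 in E1-KO, against 2.075 and 2.096 in WT (-0.23), and that from 99.40 to 99.69 Mb had 1.787 and 1.835 in E1-KO, against 2.027 and 2.194 in WT (-0.23). The remaining named TADs with a lower score lie on chromosome 3 from 102.50 to 102.61 Mb and on chromosome 7 from 87.86 to 88.01 Mb, with log2 differences of -0.22. By chromosome, chromosome 4 had 16 TADs with higher scores and 4 with lower scores without overlap among 49 matched, and chromosome 12 had 5 and 11 among 41. Chromosome 1 had 13 and 13 among 85, and chromosome 6 had 18 and 18 among 74. Over all matched TADs, 21% lay higher and 19.4% lower without overlap. No test compared the chromosomes.

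TADs were counted as gained or lost by the same rule as interactions, at a reciprocal overlap of 80%. There were 184 gained (2.72%) and 230 lost (3.4%) of 6755 distinct TADs of the 4 libraries, and 304 gained (2.7%) and 360 lost (3.2%) of 11267 distinct boundaries. Under 1 Mb the gained and lost TADs were 25 and 21 under 100 kb, 46 and 73 from 100 to 200 kb, 52 and 91 from 200 to 500 kb, and 31 and 36 from 500 kb to 1 Mb. At 1 Mb and longer there were 30 gained and 9 lost. Gained and lost TADs numbered 20 and 15 on chromosome 11, 17 and 15 on chromosome 4, and 16 and 15 on chromosome 6. Chromosome 17 had 0 gained and 5 lost. Of all TADs, chromosome 11 held 6.41% and 5.67% in E1-KO, against 5.87% and 6.14% in WT. Chromosome 4 held 5.27% and 5.76% in E1-KO, against 5.39% and 5.69% in WT. Chromosome 6 held 5.75% and 4.93% in E1-KO, against 5.52% and 5.13% in WT. Chromosome 17 held 3.76% and 3.76% in E1-KO, against 4.07% and 3.58% in WT.

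In some of these places the genotypes differ in where a TAD ends and not in whether the stretch is listed at all. Of the 184 gained TADs, 53 overlap a lost TAD, and 15 of the 30 gained TADs of 1 Mb and longer do. Both WT libraries have no TAD over 81 of the gained ones, that is none or a total cover under 20%. In 22 both list a larger TAD that holds the stretch, and in 5 both list several smaller TADs. For the 230 lost TADs, both E1-KO libraries have no TAD over 91, a larger TAD over 42 and several smaller TADs over 3. Among the 30 long gained TADs, 23 are also listed in at least 1 of the other 6 libraries and 5 in at least 3.

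The X chromosome near its end shows such a pair at a high score. E1-KO lists a TAD from 166.19 to 166.40 Mb, with scores of 2.521 and 2.614, which no other library of the series lists. WT lists a TAD from 165.75 to 166.40 Mb, with scores of 2.633 and 2.825, which 4 of the other 6 libraries also list. The end is shared and the start lies further along in E1-KO. On chromosome 12, E1-KO lists a TAD from 56.40 to 56.62 Mb, with scores of 2.222 and 2.330, within the WT TAD from 56.35 to 56.93 Mb, with scores of 2.221 and 2.289. None of the other 6 libraries lists the E1-KO form, and 5 list the WT form.

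On chromosome 7, E1-KO lists 16.42 to 17.66 Mb, with scores of 2.379 and 2.473, where WT lists 16.06 to 17.84 Mb, with scores of 2.221 and 2.363. Of the other 6 libraries, 3 list the E1-KO form and 2 the WT form. On chromosome 16, E1-KO lists 8.40 to 10.01 Mb, with scores of 1.898 and 1.977, where WT lists 8.88 to 10.01 Mb, with scores of 1.842 and 1.871. In this place the longer form is that of E1-KO, and none of the other 6 libraries lists it. The place was named outside the rule of the 8 highest scores, at rank 20 among the gained and 29 among the lost TADs.

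Other highly scored gained TADs lie where WT TADs cover under 20% of the stretch or none of it. They run from 7.30 to 7.85 Mb of chromosome 14 with scores of 2.254 and 2.801 in E1-KO, from 113.37 to 114.33 Mb of chromosome 7 with 2.405 and 2.643, and from 52.39 to 52.98 Mb of chromosome 14 with 2.594 and 2.356. The other 2 of the 8 with the highest score outside overlapping places are from 144.05 to 144.22 Mb of the X chromosome (2.231 and 2.417 in E1-KO) and from 89.09 to 89.53 Mb of chromosome 12 (2.025 and 2.432 in E1-KO). The last is in 5 of the other 6 libraries. Scores of both E1-KO libraries are well above the lowest score listed, 1.5.

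The lost TAD with the highest score runs from 68.09 to 68.61 Mb of chromosome 13, with scores of 2.864 and 3.016 in WT. No other library of the series lists it, and both E1-KO libraries list a TAD there that matches it only in part. Of the 4 gained interactions of chromosome 13, 2 lie inside this stretch, so both kinds of list differ between the genotypes here. One of them spans 80 kb, and WT replicate 2 lists nothing under 90 kb. The stretch also holds interactions that all 4 libraries list. They join 68.255 and 68.395 Mb, 68.305 and 68.595 Mb, and 68.305 and 68.605 Mb. Further lost TADs run from 113.96 to 114.77 Mb of chromosome 4 with scores of 2.186 and 2.474 in WT, from 83.44 to 83.78 Mb of chromosome 2 with 2.318 and 2.050, from 74.65 to 74.98 Mb of the X chromosome with 2.113 and 2.200, and from 10.66 to 10.88 Mb of chromosome 5 with 1.937 and 2.320. Both E1-KO libraries list a larger TAD over the stretch on the X chromosome, and under 20% of that on chromosome 4 is in an E1-KO TAD.

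The 2.5 Mb of chromosome 6 that begin at 51 Mb, a stretch that by general knowledge holds the HoxA cluster in mm9, had the same main TADs in both genotypes. A TAD from 51.13 to 52.19 Mb had scores of 1.925 and 2.034 in E1-KO, against 1.883 and 1.986 in WT. The adjoining TAD, which began at 52.19 Mb in every library and ended between 52.89 and 52.95 Mb, had 1.879 and 1.903 in E1-KO, against 1.774 and 1.844 in WT, higher in E1-KO without overlap, as were 21% of all matched TADs. The boundary at 52.19 Mb thus fell in the same bin in all 4 libraries. The TAD before them, from 50.58 to 51.13 Mb, had 1.970 and 2.022 in E1-KO, against 1.914 and 2.469 in WT.

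At the end of the stretch and reaching beyond it, both WT libraries listed a TAD from 53.45 to 53.72 Mb, with scores of 1.592 and 1.636, and neither E1-KO library listed any there. It is 1 of the 230 lost TADs, its scores lie just above the lowest score listed, and 5 of the other 6 libraries list it. Interactions with an end in the stretch numbered 1 and 1 in E1-KO, against 2 and 1 in WT, each with 4 or 5 reads, and no 2 libraries shared one. Contacts within the stretch below the detection limit of these lists could not be compared.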

How the data were processed

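Exo-Hi-C libraries of 2 E1-KO and 2 WT samples were compared, as deposited per library on mm9. Per the submitters' processing notes, reads were handled with HiC-Pro 2.10.0 and HOMER. The tool and formula behind the lists are not given in the sources used here. Each deposited interaction list gives an unscaled read count, a p-value with its adjusted p-value, and for each bin a bias ratio, whose values the authors' files hold between 0.5 and 2. Each deposited TAD list gives a score whose scale the sources used here do not define. The files hold no library totals, so absolute depth is unknown.

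Each pair of 10 kb bins was used once. For expected contacts, the deposited count and p-value of a pair were inverted through the upper tail of a Poisson distribution, and its mean was divided by the bias ratios of both bins. They fell with distance in 100% of steps in every library, but whether the authors used this formula was not tested. Reads needed for listing follow from that mean, with the bias factors taken from the genotype that lists the pair.

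Shares, log2((n + 0.5)/(N + 0.5 per class)), decay and TAD lengths were fitted with limma 3.58.1 (R 4.3.3) over 10 libraries in 5 genotypes. TAD scores and enrichments were fitted with limma over the 4 libraries, all with Benjamini-Hochberg adjustment and a threshold of 0.05. Single values were tested with exact permutation tests (scipy 1.17.1). The scripts were tested on simulated data.

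Interactions matched with both ends within 1 bin, boundaries within 20 kb, and TADs at a reciprocal overlap of 80%. Named were all chromosomes and classes, in each direction the 8 places of lost or gained interactions with the smallest mean p, the 8 lost and gained TADs with the highest score, the 8 TADs and 5 interactions with the largest differences without overlap, and the HoxA stretch. Members and lists were chosen with earlier results of these data known. The gene table at hand is of another build, so no gene was assigned to a region. Alternatives were stricter lists, equal list sizes, other matching, pseudocounts and centring, blocks, the 4 libraries alone, and leaving out each library. Added after the data were seen were the scaling to 5 Mb and the alternatives for TADs of 1 Mb and longer.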

Additional observations from a re-analysis of the deposited data

How the results depend on the processing

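Depth limits what can be said of pairs of 20 Mb and more, whose median was 3 reads in each of the 4 libraries. The difference in the number of interactions was 0.71 (log2) in place of -0.05 at an adjusted p of 0.001 for the lists and lay between -0.78 and 0.67 when each library was left out in turn. That in the number of TADs turned to 0.15 at a score of at least 2 and lay between -0.24 and 0.19, and that in TAD length lay between -0.27 and 0.18. Interaction distance stayed below 0 (log10 difference from -2.12 to -0.85). Distance classes gave 1 call at the stricter adjusted p and 0 to 1 without a library. Chromosome shares of interactions gave 2 calls with the 4 libraries alone, 1 with a pseudocount of 2 and 0 to 1 without a library. Decay gave 8 calls with the 4 libraries alone, 8 with the title prefix as a block, 3 when scaled to 5 Mb and 0 to 3 without a library. With the title prefix as a block, the share of TADs of 1 Mb and longer differed by -0.063. Boundaries matched only at the same position gave 492 gained and 568 lost. Leaving out a library, which also loosens the rule, gave 36 to 770 gained and 11 to 995 lost interactions, 596 to 2437 gained and 721 to 2099 lost boundaries, and 335 to 1585 gained and 430 to 1491 lost TADs. The X chromosome pair at 4.245 and 32.095 Mb had a log2 difference from -0.60 to 0.018. Deviations of samples with the same replicate number had a correlation of 0.63 over chromosome shares of TADs, 0.05 over TAD scores, 0.06 over interaction enrichments and -0.79 over decay distances. The labels do not say that a number marks a shared batch, so the numbers were not taken to pair the samples. With the replicate number as a block, decay gave 2 calls, both lower in E1-KO, and the other limma results gave 0, as without it. TADs of 1 Mb and longer kept a higher number and score under every alternative run for these 2 measures.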

Other observations

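The 58 interactions that all 4 libraries list crowded on few chromosomes. Chromosomes 6 and 12 held 10 each, chromosomes 4 and 14 held 6 each, chromosomes 7, 8 and 13 held 5 each, and 9 chromosomes had none. Only 3 spanned under 200 kb and 25 spanned 2 to 20 Mb. Those of chromosome 7 spanned up to 7.38 Mb, those of chromosome 8 up to 52.39 Mb, those of the X chromosome up to 28.88 Mb and those of chromosome 6 up to 74.74 Mb. Both lost pairs of chromosome 7 lay within 100 kb of pairs that all 4 libraries list.

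Boundaries that separate the genotypes were most frequent on the X chromosome, with 33 gained and 40 lost. That chromosome held 6.34% and 9.57% of all TADs in E1-KO, against 7.33% and 8.37% in WT. Chromosome 3 had 11 gained and 31 lost, and chromosome 10 had 8 gained and 20 lost. Chromosome 12 had 17 gained and 10 lost, and chromosome 9 had 14 gained and 8 lost. These counts have no test and were not scaled to the number of boundaries on each chromosome.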
